A study of Zea mays with 4 samples.

Results

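The 5 maize genes described here encode the enzymes of ethanol fermentation. Pyruvate decarboxylase (PDC) is encoded by pdc1 (AC197705.4_FG001), pdc2 (GRMZM2G038821) and pdc3 (GRMZM2G087186), and alcohol dehydrogenase (ADH) by adh1 (GRMZM2G442658) and adh2 (GRMZM2G098346). They were taken by gene identifier from 34567 genes with a value above 0 in any library, and all 5 were among the 24624 genes tested. Endosperm, where the kernel stores starch and protein, was collected 10 days after pollination from wild type (WT) and from a mutant whose libraries are labelled dek, and its RNA was sequenced. A and B denote the 2 libraries of a genotype. A library pooled 8 to 10 individuals, and 2 different segregating ears supplied the repeats. The labels name neither the mutated gene nor the inbred background, and they state no treatment, so the genotype could not be checked on its own transcript.

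PDC splits pyruvate, the end product of glycolysis, into acetaldehyde and carbon dioxide, and ADH then reduces acetaldehyde to ethanol while it turns NADH back into NAD+. The route lets glycolysis go on when oxygen is too scarce for respiration, and maize adh1 is a classic gene of the anaerobic response of roots. The inner endosperm of cereal grains is a bulky tissue in which oxygen is known to be low.

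The PDC genes did not move together. In dek endosperm pdc1 rose 3.07-fold and pdc3 2.68-fold while pdc2 fell, and the summed PDC transcript level was higher and held a smaller share of pdc2. Neither ADH gene passed the test, and adh1 was by far the most abundant of the 5 in every library. Of the 5 genes, 2 were called higher and 1 lower by edgeR's quasi-likelihood test at a Benjamini-Hochberg adjusted p under 0.05. Over all genes tested, 16.8% were called in either direction, 7.98% higher and 8.85% lower in dek.

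The estimated counts summed to 13119658 to 14776699 per library. All 8 endosperm markers, among them the gamma-zein gene gz27, were detected in every library. Their FPKM (fragment counts scaled to gene length and library size) summed to 37440 and 35530 in the wild-type pools and to 3897 and 6102 in the dek pools. Of the 6 embryo markers matched, wox5b was listed at 0 everywhere, kn1 stayed at or below 0.45 FPKM and lec1 at or below 2.88. In WT A, WT B, dek A and dek B, wox2a stood at 17.11, 20.26, 22.13 and 28.09 FPKM. In the same order, glb1 stood at 21.64, 22.9, 16.26 and 11.46 FPKM. The embryo sum was 589.9 and 638.9 FPKM in WT against 122.2 and 118.8 in dek, most of it from the oleosin gene ole1, which aleurone also expresses. The 18 genes of leaf photosynthesis summed to between 8.90 and 11.28 FPKM. Markers of the basal transfer layer, the cells that take up sugar from the mother plant, differed between the wild-type pools as well as between genotypes. There were 9 of them, none at 0 in any library, and they summed to 3082 FPKM in WT A, 821 in WT B, 7080 in dek A and 4614 in dek B. In these pooled tissues, fewer cells of a type and less RNA per cell cannot be told apart. The labels give no batch, and the p-values describe the spread between pools.

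For pdc1, the level was 93.95 FPKM in WT A, 62.86 in WT B, 271.83 in dek A and 322.31 in dek B. Both dek pools lay above both wild-type pools, and the lower dek pool was well above the higher wild-type pool. These values rest on 2453, 1480, 7215 and 8515 estimated counts. The mean rose from 78.4 ± 22.0 to 297 ± 35.7 FPKM (SD, n = 2), and the log2 fold change in the fitted counts was 1.62 ± 0.23 (SE; 95% interval 1.06 to 2.18; edgeR adjusted p = 0.0115), a 3.07-fold rise. The call was lost without dek B, with edgeR's adjusted p at 0.0584 and a log2 fold change of 1.45. Ranked by FPKM among all genes, pdc1 stood at 1107 and 1748 in the wild-type pools and at 392 and 327 in the mutant pools. The summed basal transfer layer markers were also higher in both dek libraries and, like pdc1, higher in WT A than in WT B. Between the dek libraries the orders differed: the sum was 7080 in dek A and 4614 in dek B, whereas pdc1 was higher in dek B. The part of that layer in the pdc1 difference was not tested.

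For pdc3, the level was 75.82 FPKM in WT A, 80.11 in WT B, 299.96 in dek A and 216.96 in dek B. The wild-type pools lay close together and both dek pools were above them, with dek A the higher. The mean rose from 78.0 ± 3.03 to 258.5 ± 58.7 FPKM (SD, n = 2), on 2631, 2508, 10577 and 7614 counts. The log2 fold change was 1.42 ± 0.17 (SE; 95% interval 1.0 to 1.84; edgeR adjusted p = 0.00789), a 2.68-fold rise. Its call held in all 4 fits that left out a library, with log2 fold changes of 1.18 to 1.60. The 95% intervals of pdc1 and pdc3 overlapped, and these libraries do not show which of the pair rose more.

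For pdc2, the level was 60.15 FPKM in WT A, 54.90 in WT B, 40.79 in dek A and 36.60 in dek B. The genotypes did not overlap, and the pools of each genotype lay close together. The mean fell from 57.5 ± 3.71 to 38.7 ± 2.96 FPKM (SD, n = 2), on 1953, 1607, 1346 and 1202 counts. The log2 fold change was -0.88 ± 0.12 (SE; 95% interval -1.18 to -0.57; edgeR adjusted p = 0.0115). The call was lost without dek A (adjusted p = 0.0632) and without dek B (adjusted p = 0.069), although the fold change itself stayed between -0.95 and -0.81 when any library was left out. Scaling by total counts alone, which moves the log2 fold changes of all genes up by a median of 0.307, brought it to -0.57, still past the threshold (edgeR adjusted p = 0.0272).

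**Figure D1:**
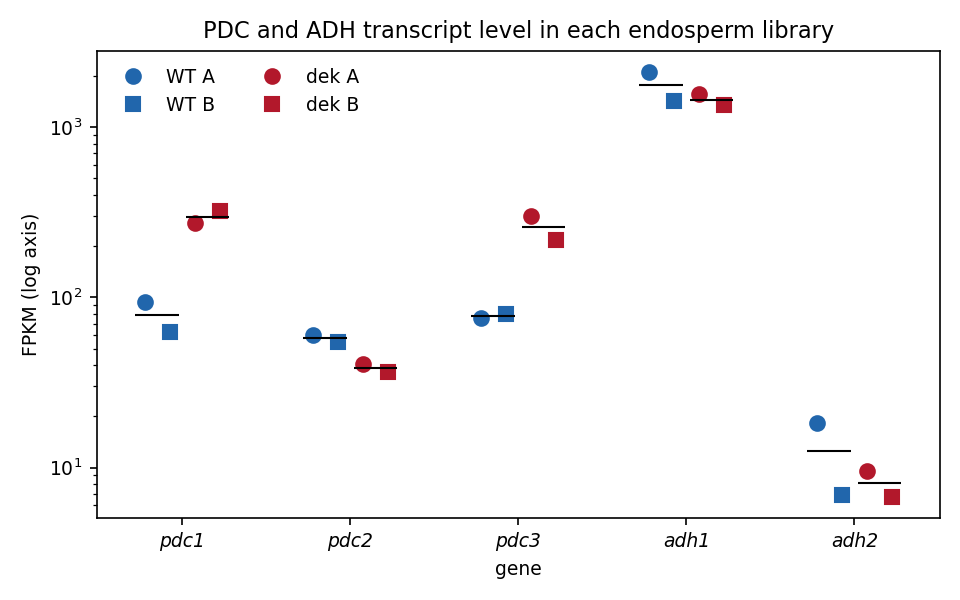
FPKM of the 5 genes in each library on a log axis; points are single libraries (circles A, squares B; blue WT, red dek) and black lines are the means of 2. The dek points lie above the WT points for pdc1 and pdc3, below them for pdc2, and overlap them for adh1 and adh2.

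For adh1, the level was 2106.90 FPKM in WT A, 1428.30 in WT B, 1558.28 in dek A and 1346.68 in dek B. The wild-type pools stood farther apart than the dek pools, and dek A fell between them, so the genotypes overlapped. The transcript took 0.372% and 0.251% of the wild-type counts and 0.276% and 0.238% of the mutant counts, on 54211, 32976, 40800 and 34971 counts. By FPKM it ranked 24 and 38 among all genes in the wild-type pools and 21 and 23 in the mutant pools. The log2 fold change was -0.59 ± 0.21 (SE; 95% interval -1.10 to -0.07) and did not pass the threshold in edgeR (unadjusted p = 0.0319, adjusted p = 0.109). It passed in the DESeq2 Wald test (adjusted p = 0.025) and in edgeR without WT B (log2 fold change -0.85, adjusted p = 0.0473), while without WT A the log2 fold change was -0.28 and the edgeR adjusted p was 0.404. Scaling by total counts alone also gave -0.28, so the size of the difference rests on the scaling as well as on which wild-type pool is used.

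For adh2, the level was 18.26 FPKM in WT A, 6.94 in WT B, 9.55 in dek A and 6.76 in dek B. WT A stood alone, at 2.63 times WT B, while the other 3 libraries lay together. These values rest on 438, 150, 233 and 164 counts, the fewest of the 5 genes. The log2 fold change was -0.94 ± 0.46 (SE; 95% interval -2.07 to 0.19; edgeR adjusted p = 0.207), an interval that spans 0. Without WT A it was -0.07 (edgeR adjusted p = 0.886), and without WT B it was -1.48 (adjusted p = 0.0167). Like the 9 basal transfer layer markers, both ADH genes were higher in WT A than in WT B. By FPKM adh1 was 1.48 times higher and pdc1 1.49 times higher there, while the ratio was 1.10 for pdc2 and 0.946 for pdc3. The summed basal transfer layer markers were higher in both dek libraries than in either wild-type library, whereas both ADH genes overlapped between genotypes. The part of that layer in the spread of the wild-type pools was not tested.

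**Figure D2:**
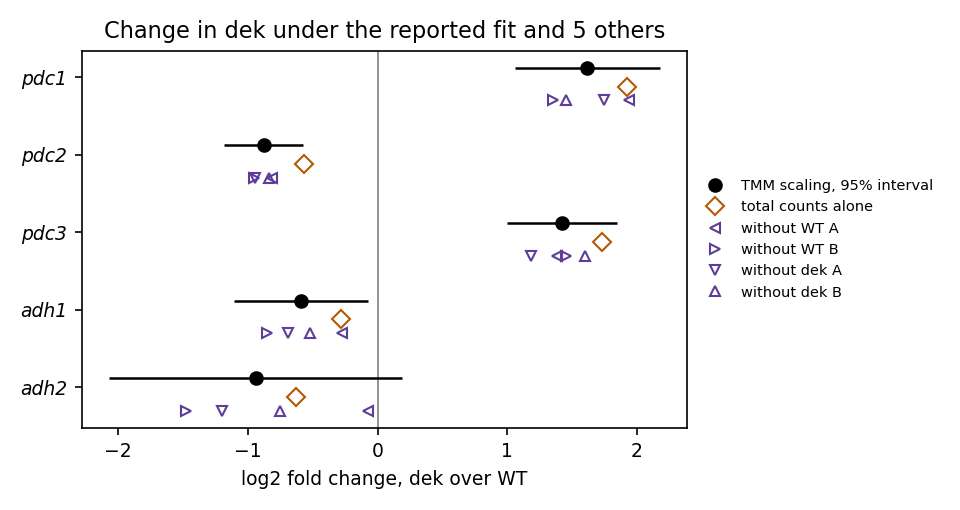
Log2 fold change of dek over WT for the 5 genes: black points with 95% intervals are the TMM-scaled edgeR fit, orange diamonds the same fit scaled by total counts alone, and purple triangles the fits that leave out 1 library each. The pdc1 and pdc3 points all lie above 0 and the pdc2 points below it, and the adh2 points spread from -1.48 to -0.07.

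Levels per length kept a fixed order only in part. In every library adh1 was highest, adh2 lowest and pdc2 second lowest. The order of pdc1 and pdc3 differed within each genotype: pdc1 was the higher of the pair in WT A and dek B, and pdc3 in WT B and dek A. In WT the mean FPKM of pdc1 and pdc3 (78.4 and 78.0) differed by less than the spread of pdc1 between pools, and in dek their means (297 and 258.5) also differed by less than the spread of pdc3.

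The PDC transcript sum differed in size and in make-up. Summed over pdc1, pdc2 and pdc3 it was 229.9 FPKM in WT A and 197.9 in WT B, against 612.6 in dek A and 575.9 in dek B. In WT, pdc2 made up 26.2% and 27.7% of that sum, and in dek 6.66% and 6.36%. The share of pdc1 was 40.9% and 31.8% in WT and 44.4% and 56.0% in dek, and that of pdc3 was 33.0% and 40.5% in WT and 49.0% and 37.7% in dek. The pdc3 shares overlapped between genotypes. The ADH sum was 2125 and 1435 FPKM in WT and 1567.8 and 1353 in dek, and adh1 made up at least 99.1% of it in each library.

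**Figure D3:**
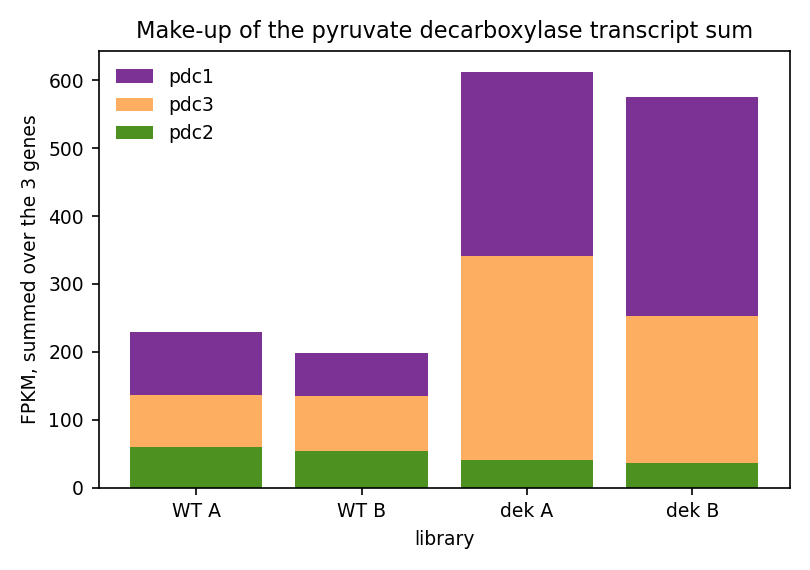
FPKM of pdc2 (green), pdc3 (orange) and pdc1 (purple) stacked for each library, from 0. The bars reach 229.9 and 197.9 FPKM in WT and 612.6 and 575.9 FPKM in dek, and the green part is smaller in dek.

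Ratios taken within a library do not depend on how libraries are scaled to each other. The ratio of pdc1 to pdc2 was 1.56 in WT A, 1.14 in WT B, 6.66 in dek A and 8.81 in dek B, a difference of 2.52 on the log2 scale between the means of dek and WT. The ratio of pdc3 to pdc2 was 1.26, 1.46, 7.35 and 5.93 in the same order, a log2 difference of 2.28. Both dek libraries lay above both WT libraries in each ratio, and the exact two-sided permutation p was 0.333 for each, the smallest that 2 against 2 libraries can give. The ratio of adh1 to adh2 was 115 in WT A, 206 in WT B, 163 in dek A and 199 in dek B, and the genotypes overlapped (log2 difference 0.23, exact permutation p = 1). Without WT A that difference turned to -0.19. The ratio of the PDC sum to the ADH sum was 0.108 and 0.138 in WT and 0.391 and 0.425 in dek, a log2 difference of 1.74 in means of -3.03 ± 0.25 and -1.29 ± 0.09 (SD, n = 2). Leaving out any library kept this difference between 1.56 and 1.91.

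The estimated counts of all 5 were whole numbers in all 4 libraries (within 0.001), while 29.1% of all genes had an estimate that was not whole in at least 1 library. The deposited tables list 11 transcripts for adh1, 4 for pdc3 and 1 each for pdc1, pdc2 and adh2, and give values per gene only. Strandedness of the libraries was not given in the sources used here, so antisense reads at these genes cannot be told apart.

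Further genes carry PDC or ADH annotations. The further ADH genes were not restricted to those that act on acetaldehyde. They include genes described as superfamily proteins and an allyl alcohol dehydrogenase-like gene. Of 3 further genes annotated as pyruvate decarboxylase, 1 was called higher in dek and none lower. It was GRMZM2G434792, described as pyruvate decarboxylase 3-like, with 0 counts in WT A, 1 in WT B, 184 in dek A and 119 in dek B (edgeR adjusted p = 0.00429). Scaled to library size, the dek count was 230 times that of WT, with an exact 95% interval from counting alone of 41 to 9120. In dek it reached 5.67 and 3.69 FPKM, far below pdc1 and pdc3. The others, GRMZM2G180552 and GRMZM2G438178, had mean levels of 1.49 and 2.19 FPKM in WT and 2.98 and 2.31 FPKM in dek and did not pass the test (edgeR adjusted p = 0.16 and 0.578). Of 15 further genes described or annotated as alcohol dehydrogenase, 10 were tested, 2 were called higher and none lower, and the median log2 fold change was -0.27. These were GRMZM2G328094, at 4.66 FPKM in WT and 12.9 in dek (log2 fold change 1.17, edgeR adjusted p = 0.0171), and GRMZM2G149272, at 4.53 and 9.55 FPKM (log2 fold change 0.76, adjusted p = 0.0466). The most abundant gene of that list, GRMZM5G824600, was picked after its values were seen; at 167.0 ± 9.36 FPKM in WT and 169.3 ± 14.8 in dek (SD, n = 2) it stood above adh2 and did not pass (edgeR adjusted p = 0.188).

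The steps next to fermentation were described with 9 lists of 117 genes, both lists above included, of which 99 were tested. Of these, 11 were called higher and 22 lower, together 33.3%, beside 16.8% over all genes tested (7.98% higher and 8.85% lower). These shares were not matched for transcript level, and the lists were chosen with earlier results of these data known. The median log2 fold change was -0.17, beside 0.01 over all genes tested. Scaling by total counts alone gave 22 higher and 14 lower among them. Over all 24624 genes tested, the split was 1965 higher and 2178 lower with TMM and 4502 and 1279 with total counts alone. With any library left out, fewer genes were called higher and fewer lower, both in the lists and over all genes tested. The fall was larger without a dek library than without a wild-type library.

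Some aldehyde dehydrogenases oxidise acetaldehyde, the product of PDC, to acetate. The list was not restricted to genes that act on acetaldehyde, and it includes family 7 genes and a fatty aldehyde dehydrogenase. Of 19 tested, 2 were called higher and 4 lower (median log2 fold change 0.09). Among those called, the most abundant were the family 7 gene GRMZM2G130440 (-0.95, edgeR adjusted p = 0.0344), the mitochondrial RF2B (GRMZM2G125268; -1.84, adjusted p = 0.0139) and GRMZM2G122172, similar to family 2 member C4 (1.10, adjusted p = 0.0173), each value a log2 fold change. Acetyl-CoA synthetase joins acetate to coenzyme A, and 1 of the 2 genes was called higher, GRMZM2G157269 (log2 fold change 0.75, edgeR adjusted p = 0.0177). Lactate dehydrogenase reduces pyruvate to lactate, and the only gene of it that was tested, GRMZM2G128929, did not pass (log2 fold change -0.04, 95% interval -0.51 to 0.44, edgeR adjusted p = 0.917). Its log2 fold change was above 0 with upper-quartile factors (0.001), with total counts alone (0.27) and without dek A (0.06). Alanine aminotransferase makes alanine from pyruvate, and of 7 genes tested 3 were called lower and none higher (median -1.36). The abundant GRMZM2G088064 fell from 1047.21 and 963.39 to 368.39 and 420.37 FPKM (log2 fold change -1.65 ± 0.14 (SE), edgeR adjusted p = 0.00358). The other called genes had few counts: GRMZM5G840582 had 53 and 50 in WT and 4 and 8 in dek (adjusted p = 0.0134), and GRMZM2G117230 had 30 and 32 in WT and 0 and 1 in dek (adjusted p = 0.0123). The median is the value of GRMZM2G053939, which had 36 and 39 counts in WT and 39 and 0 in dek. The most abundant gene not called, GRMZM5G828630, was picked after its values were seen. It stood at 863.62 and 750.19 FPKM in WT and 845.85 and 844.0 in dek (log2 fold change -0.24, edgeR adjusted p = 0.247).

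The pyruvate dehydrogenase complex turns pyruvate into acetyl-CoA, and of 22 tested genes of it and its kinase 2 were called higher and 6 lower (median log2 fold change -0.12). Named by their level, GRMZM2G033894 (E1 alpha; -0.88, edgeR adjusted p = 0.0136) and GRMZM2G088565 (E1 beta; -0.61, adjusted p = 0.0214) fell, and GRMZM2G015132 (E2; 0.76, adjusted p = 0.0166) rose. Enolase, pyruvate kinase and pyruvate orthophosphate dikinase stand upstream of pyruvate, and of 20 tested genes 1 was called higher and 5 lower (median -0.34). Both dikinase genes fell, GRMZM2G097457 from 4532.10 and 3524.08 to 280.35 and 544.63 FPKM (log2 fold change -3.59 ± 0.36 (SE), edgeR adjusted p = 0.00524) and GRMZM2G306345 from 1289.98 and 1508.12 to 616.22 and 807.93 FPKM (-1.23 ± 0.15 (SE), adjusted p = 0.00814). GRMZM2G152686, annotated as pyruvate kinase but with an uninformative description, fell as well (log2 fold change -1.73, edgeR adjusted p = 0.00357). The most abundant enolase and pyruvate kinase genes were picked after their values were seen, and neither passed. Enolase eno1 (GRMZM2G064302) stood at 4532.59 and 3852.11 FPKM in WT and 6919.65 and 6420.53 in dek (0.36, edgeR adjusted p = 0.117). Pyruvate kinase GRMZM2G119175 averaged 287.2 FPKM in WT and 289.8 in dek (-0.29, edgeR adjusted p = 0.222).

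Of 15 tested genes linked to low oxygen in plants, 2 were called higher and 4 lower (median log2 fold change -0.13). They were sucrose synthase genes, genes annotated as cysteamine dioxygenases and a hemoglobin gene. Group VII ethylene response factors, also planned for this list, could not be matched by name. The LOB domain gene that was matched was not tested. Sucrose synthase genes sh1 (GRMZM2G089713; -3.15, edgeR adjusted p = 0.00522) and sus2 (GRMZM2G318780; -0.73, adjusted p = 0.0269) fell. GRMZM2G043417, annotated as a cysteamine dioxygenase, the family of the plant cysteine oxidases that sense oxygen in Arabidopsis, fell too (-0.97, edgeR adjusted p = 0.017). The most abundant gene not called, sucrose synthase sus1 (GRMZM2G152908), was picked after its values were seen. It stood at 189.5 and 190.25 FPKM in WT and 206.31 and 221.29 in dek (log2 fold change -0.13, edgeR adjusted p = 0.472). The genes called higher are named after their values were seen. They were the non-symbiotic hemoglobin gene GRMZM2G067402, at 2.25 and 0.76 FPKM in WT and 17.06 and 17.61 in dek (log2 fold change 3.39, edgeR adjusted p = 0.012), and a further dioxygenase gene, GRMZM2G107557, at 15.82 and 7.86 FPKM in WT and 36.80 and 33.90 in dek (1.27, adjusted p = 0.0477). Both were, like pdc1 and the basal transfer layer markers, higher in WT A than in WT B, and the part of that layer in them was not tested. Their log2 fold changes depended on the wild-type pool used: that of GRMZM2G067402 was 4.48 without WT A and 2.80 without WT B, and that of GRMZM2G107557 was 1.86 without WT A and 0.85 without WT B.

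With any library left out, the calls of GRMZM2G434792, GRMZM2G088064, both dikinase genes, GRMZM2G152686 and sh1 held, although the log2 fold change of the dikinase gene GRMZM2G097457 was -4.18 without dek B. Every other called gene named in the lists lost its call without dek A (edgeR adjusted p 0.0638 to 0.204). Without dek B they lost it too (0.0518 to 0.177), except RF2B and GRMZM2G043417. Without WT B the calls of GRMZM2G130440, GRMZM2G157269, GRMZM2G015132, GRMZM2G088565 and GRMZM2G149272 were lost (0.0521 to 0.0958), and without WT A those of GRMZM2G088565, sus2 and GRMZM2G149272 (0.0591 to 0.11). With total counts alone GRMZM2G130440, GRMZM2G088565 and sus2 did not pass (0.0734 to 0.0936).

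**Figure D4:**
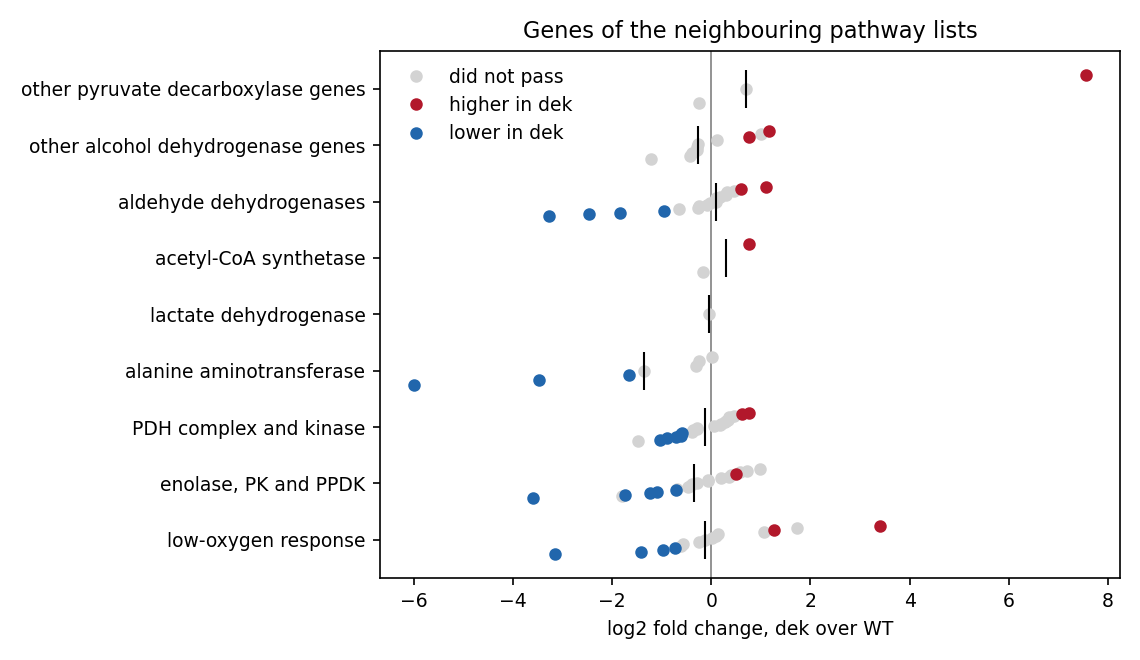
Log2 fold change of dek over WT for the tested genes of the 9 lists; red and blue points passed the edgeR threshold (higher or lower in dek), grey points did not, and black bars are list medians. Calls lie on both sides of 0 in 4 lists; the points at 7.56 and -6.00 are genes with a single count in one genotype, whose fitted size depends on the prior count.

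The members were compared with each other and with other genes by their values over the 4 libraries. The measure was the root mean square difference of centred log2 CPM (counts scaled to library size, with TMM factors). It depends on the size of a change as well as on its shape, so genes that change little can lie close together. Among the members, pdc2 and adh1 were the most alike (0.221), followed by adh1 and adh2 (0.325) and pdc1 and pdc3 (0.363), and pdc1 and pdc2 the least (1.28). Of 3601 other tested genes that averaged 10 FPKM or more and had an informative description, 47 lay within 0.1 of pdc2, 9 of adh1, 3 of pdc3, 1 of pdc1 and none of adh2. The nearest to pdc1 were a delta DNA polymerase (GRMZM2G369260, 0.0728), a cytochrome P450 90D2-like gene (GRMZM2G032896, 0.151) and beta tubulin 4 (GRMZM2G066191, 0.175). The nearest to pdc3 were the mitochondrial chaperonin CPN60-2 (GRMZM2G416120, 0.0477), which stood at 190.2, 191.7, 563.7 and 456.5 CPM in WT A, WT B, dek A and dek B beside 202.1, 212.0, 635.8 and 473.1 CPM for pdc3, a succinyl-CoA ligase beta chain (BGI_novel_G003066, 0.0958) and a ras and EF-hand domain protein homolog (GRMZM5G803949, 0.0987). For pdc2 they were the ras protein RHN1 (GRMZM2G131939, 0.0145), a DWF1-like gene (GRMZM2G057000, 0.0283) and a MYB domain gene (GRMZM5G813892, 0.0347). The likeness of GRMZM2G057000 to pdc2 holds in CPM only. Its CPM went from 386.1 and 357.0 in WT to 201.8 and 194.2 in dek, whereas its FPKM was 124.2 and 118.6 in WT and 119.0 and 108.3 in dek. For adh1 they were a TGA6-like transcription factor (GRMZM2G452564, 0.0415), a COBRA-like gene (GRMZM2G308873, 0.0651) and a prolyl 4-hydroxylase subunit (GRMZM2G145061, 0.0704), and for adh2 a brittle stalk-2-like gene (GRMZM2G167520, 0.226), a CBS domain gene (GRMZM2G416388, 0.253) and peroxidase 68 (GRMZM2G382379, 0.261). Likeness over 4 libraries is a description of these pools.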

How the data were processed

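Per the labels' protocols, a CTAB method gave the total RNA and library preparation was the standard Illumina one. The authors deposited, 1 table per library that gives gene length, FPKM and the estimated count of every gene above 0. Genes absent from a table were set to 0. The submitters' processing notes name HISAT, Bowtie2, RSEM and GATK without roles, with versions, build and annotation not given in the sources used here. Deposited FPKM were used unchanged and deposited estimated counts were rounded. Names came from the deposited descriptions and a RefSeq table of Zm-B73-REFERENCE-NAM-5.0 (17321 genes matched by model identifier and 5844 by protein accession, pdc1 among the latter).

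All genes were fitted with edgeR 4.0.16 in R 4.3.3 (filterByExpr, TMM, quasi-likelihood F test, two-sided, Benjamini-Hochberg adjustment, no block). TMM factors were 0.895, 0.903, 1.128 and 1.097 for WT A, WT B, dek A and dek B, the biological coefficient of variation was 0.226, and the method was tested on simulated data. Standard errors are the log2 fold change over the root of F. Intervals on counts cover counting error only. Ratios within a library used FPKM and an exact permutation test in scipy 1.17.1. Alternatives were other scalings, DESeq2 1.42.0, limma 3.58.1 on log2(FPKM + 1) or log2(FPKM + 0.1), other filters, blocks, and each library left out.

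Members and lists were chosen with earlier results of these data known. Lists were matched by description or name (79 genes) or, where descriptions were uninformative, by a sole KEGG orthology with an agreeing GO function (38 genes). Of the genes named, GRMZM2G180552, GRMZM2G438178, GRMZM5G828630, GRMZM2G033894, GRMZM2G152686, GRMZM2G043417 and GRMZM2G107557 rest on the latter match. The naming rule took all members, up to 3 called genes per list by highest mean FPKM (or 1 where none was called), and the 3 genes most like each member. Basal transfer markers were betl1, betl2 (also bap2), betl3, betl4, betl9, betl10, meg1, mn1 and tcrr1; mrp1, bap3 and the embryo marker ole3 were not matched.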

Additional observations from a re-analysis of the deposited data

How the results depend on the processing

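Of 136 values of the member, ratio and call-count results under alternatives, 109 were the same by the rule for their kind. Fold changes had to keep their direction and side of the threshold, and counts to lie within 1.5 times of the reported one. Ratio differences had to keep their direction and differ from the reported one by less than the pooled SD of the genotypes. With a library left out, a ratio difference always moves by less than that SD. Those values were therefore checked for direction only. Genes called higher were 4502 with total counts alone, 4483 and 4145 with limma on log2(FPKM + 1) and log2(FPKM + 0.1), and 281 to 1731 with a library left out; genes called lower were 1279, 1326, 1260 and 465 to 1966. With libraries left out, the log2 fold change was 1.35 to 1.94 for pdc1, -0.95 to -0.81 for pdc2, -0.85 to -0.28 for adh1 and -1.48 to -0.073 for adh2, and the adh1 to adh2 difference was -0.19 to 0.64. The DESeq2 Wald test gave adh1 -0.60, past the threshold. List genes called higher were 22 with total counts alone and 1 to 10 with a library left out, and those called lower 14 and 8 to 19. For lactate dehydrogenase GRMZM2G128929, upper-quartile factors gave 0.001, total counts alone 0.27 and leaving out a library -0.168 to 0.063. Except where fewer samples or the scaling itself show it, the cause was not tested. A replicate block by title letter gave 811 genes higher and 1080 lower; the letters correlated at -0.0218 in their deviations and are not known to mark an ear, and the member calls were unchanged in that fit and in the one with crossed letters (pdc1 1.64 in both, pdc2 -0.88 in both, pdc3 1.41 in both). With 2 pools per genotype, adh2 (150 to 438 counts) is the member least resolved.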
